A study of Homo sapiens with 6 samples.

Results

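The subject here is a list of 42 genes that copy DNA or open S phase, chosen by name, of which 40 had a probe set with a single gene symbol in the array annotation. The 40 were all at or above the level below which genes were not tested, among 13808 tested genes of 18417 named ones. BRCA2 and FANCD2 were not analysed here. For UHRF1, which had 2 probe sets, the one with the higher mean was used. Levels are log2 signals, and levels of different genes cannot be set against each other on arrays. A change is the level in co-culture minus that alone.

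Total RNA came from 3 established human cell lines, named Mel 270, Mel 290 and 92.1, each labelled as choroidal uveal melanoma, a tumour of the pigment cells of the eye. Each line gave 1 array grown alone (n = 3 arrays) and 1 array grown under an insert whose membrane held activated T cells of healthy volunteers apart from the tumour cells (n = 3 arrays). Both groups had the same serum-free medium for 64 h. When the medium was changed Mel 290 was already confluent and the other lines were not yet so, and 80000 cells of 92.1 had been plated against 100000 of each of the other lines, so cell density and line cannot be told apart. The T cells had been activated with beads against CD3 and CD28, and T cells or beads alone had no array here.

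The melanocyte genes MLANA, PMEL, TYR and TYRP1 lay between 9.39 and 13.2 in 92.1 and Mel 270 and between 4.64 and 6.10 in Mel 290, where all but PMEL were below the filter level of 5.80 on both arrays. The regulator genes MITF and SOX10, among the other 3 measured markers, were above 5.80 in Mel 290 but below the other lines. MITF was at 11.01, 11.03 and 8.96 alone in 92.1, Mel 270 and Mel 290 and at 10.22, 8.93 and 8.16 in co-culture. SOX10 was at 8.87, 9.21 and 6.84 alone and at 8.80, 8.75 and 7.25 in co-culture. SLC45A2, a pigment transporter gene, was at 6.67 alone and 5.27 in co-culture in Mel 290, against 6.56 and 5.46 in Mel 270 and 10.02 and 7.52 in 92.1. The summed level of the 7 markers was 43.5 to 79.3 alone and 41.4 to 73.7 in co-culture. The T cell receptor chains CD3D, CD3E and CD3G were below 5.80 on all 6 arrays, at 4.46 to 5.62 alone and 4.63 to 5.70 in co-culture. Of 14 T cell markers 8 were below 5.80 on every array. The summed level of the 14 was 78.8 to 81.6 alone and 77.9 to 82.5 in co-culture, ranges that pool the lines. By line, CD3D, CD3E and CD3G changed by -0.09, 0.03 and 0.09 in 92.1 and by -0.15, 0.24 and -0.13 in Mel 270. In Mel 290 they changed by 0.09, 0.37 and 0.07. The 5 tested markers had median changes of 0.04 in 92.1, -0.28 in Mel 270 and 0.09 in Mel 290, with 2, 4 and 2 lower. Whether the lines differed in this was not tested. Proliferating T cells also express replication genes, so these values stand beside every result here.

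DNA replication starts at origins that are licensed in G1, when the origin recognition complex, CDC6 and CDT1 load the ring-shaped MCM helicase onto DNA. At the start of S phase cyclin E kinase and other kinases bring CDC45 and GINS to the helicase, which then unwinds DNA for the polymerases. Most of these genes are transcribed under E2F factors, which the RB proteins hold in check in resting cells, so their RNA is high in dividing cells. In a bulk RNA sample, fewer cells in S phase and less RNA per cell cannot be told apart.

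The E2F sites of 4 promoters are shown because E2F control is what these genes are best known for. RefSeq promoters of assembly GRCh38.p14, each 250 bases before and 50 bases after the transcript start, were found for 37 of the 42 genes; CCNE2, E2F8, GINS4, MCM4 and MCM5 had no entry. An E2F match was any of TTTCCCGC, TTTGGCGC, TTTGCCGC or TTTCGCGC on either strand. It stood in 22 of the 37 promoters (59.5%) and in 908 of 27305 promoters of the same length (3.33%). The 4 sequences hold the 250 bases before the start, 5′ to 3′ on the strand of the gene, with E2F matches in capitals. They were chosen after the values were seen: GINS2 had the lowest mean change, TYMS differed by over 2-fold in each line, MCM6 had 4 matches and E2F1 had the mean change nearest to 0.
GINS2, chr16:85688955-85689204, minus strand: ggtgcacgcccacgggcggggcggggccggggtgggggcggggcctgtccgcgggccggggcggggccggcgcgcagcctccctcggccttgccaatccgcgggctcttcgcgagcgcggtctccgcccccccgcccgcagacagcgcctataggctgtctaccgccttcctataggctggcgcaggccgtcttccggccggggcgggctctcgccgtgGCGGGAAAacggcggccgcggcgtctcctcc
TYMS, chr18:657403-657652, plus strand: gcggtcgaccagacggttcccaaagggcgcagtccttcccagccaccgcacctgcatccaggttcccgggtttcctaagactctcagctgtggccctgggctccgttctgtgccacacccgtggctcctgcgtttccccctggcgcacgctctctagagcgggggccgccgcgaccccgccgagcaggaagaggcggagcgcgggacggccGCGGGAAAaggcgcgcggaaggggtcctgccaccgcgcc
MCM6, chr2:135876444-135876693, minus strand: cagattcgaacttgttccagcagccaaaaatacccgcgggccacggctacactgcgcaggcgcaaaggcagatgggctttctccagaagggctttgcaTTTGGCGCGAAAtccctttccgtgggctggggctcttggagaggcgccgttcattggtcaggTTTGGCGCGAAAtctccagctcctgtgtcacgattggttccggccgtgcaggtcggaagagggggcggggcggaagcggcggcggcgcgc
E2F1, chr20:33686386-33686635, minus strand: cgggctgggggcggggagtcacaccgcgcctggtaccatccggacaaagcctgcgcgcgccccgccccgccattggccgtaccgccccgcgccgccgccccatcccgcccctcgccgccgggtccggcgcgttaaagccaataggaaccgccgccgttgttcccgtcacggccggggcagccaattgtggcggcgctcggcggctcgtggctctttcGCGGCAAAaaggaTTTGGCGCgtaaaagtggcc

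In GINS2 the match began 31 bases before the start and in TYMS 39 bases before it. The 4 matches of MCM6 formed 2 overlapping pairs, each a match on one strand that shared 4 bases with a match on the other. E2F1 had matches that began 33 and 20 bases before the start. The CHR element of mitosis genes, searched as TTTGAA or TTCGAA on either strand, stood in 2 of the 37 promoters (5.41%), in 19 of 25 promoters of mitosis genes (76.0%) and in 16.6% of all promoters. A CCAAT box, searched on either strand, stood in 19 of the 37 (51.4%), in 20 of the 25 (80.0%) and in 35.7% of all. An E2F match shared bases with a CHR or CCAAT match in 1 of the 37. A match is a description of letters, not of a bound site, and the genes were picked for a process known to be under E2F. The 21 measured genes with an E2F match had a median change of -0.84 (range -1.71 to -0.11), and the 14 without had -1.01 (range -1.42 to -0.34).

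The main comparison asked how these genes differed between lines grown with and without activated T cells. Every one of the 40 had a mean change below 0, from -1.71 in GINS2 to -0.11 in E2F1, with a median of -0.89, against -0.04 over all tested genes. Without 92.1 the mean was above 0 for 3 of them: E2F1 (0.15), POLA2 (0.10) and GINS3 (0.026). None passed an adjusted p of 0.05 in limma with the line as a block, where 0.449% of all tested genes did (0.0362% lower). The lowest adjusted p was 0.065, for RRM1, and the highest 0.85, for E2F1. At an unadjusted p under 0.05, 34 of the 40 were lower and 0 were higher, against 13.0% lower and 7.02% higher over all tested genes. In 35 of the 40 the level was lower in all 3 lines, which held for 25.5% of tested genes, and 15 had a mean at least 2-fold lower, against 1.85%. The 3 arrays alone were all above the 3 arrays in co-culture for 11 genes, against 5.96%. E2F8, which passed the filter only through the arrays alone, is among the 34, the 35 and the 11. Without Mel 290 the fit called 1 of the 40, GINS2 (change -2.14, adjusted p = 0.044), against 0.558% of tested genes. That fit had 34 of the 40 lower at an unadjusted p under 0.05, against 12.2%. Without 92.1 it called 0 (0.355% of tested genes), with 25 lower at an unadjusted p under 0.05 (8.02%). Without Mel 270 it called 0 (0.616%), with 27 lower (8.99%).

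**Figure D1:**
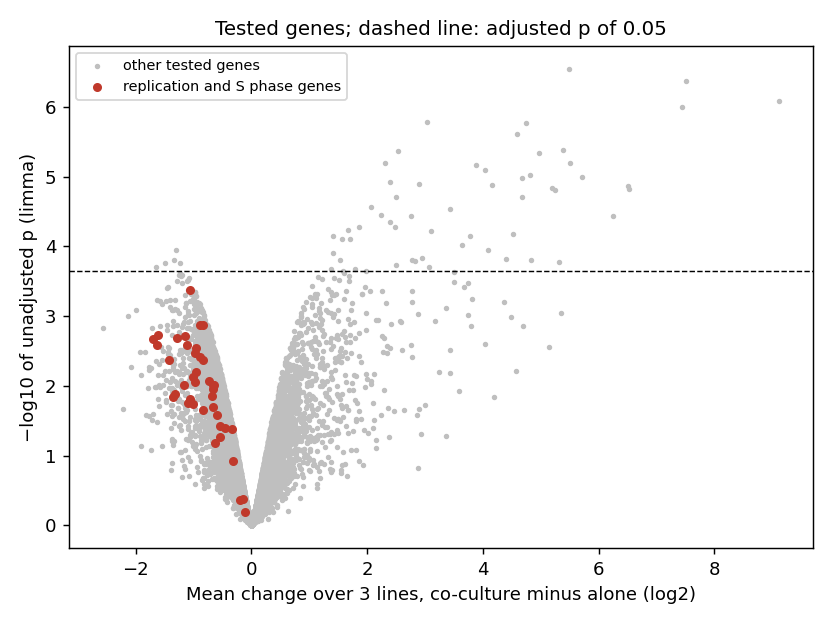
Each point is 1 of 13808 tested genes, placed by its mean change over 3 lines (horizontal, log2, co-culture minus alone) and by −log10 of its unadjusted limma p (vertical); red points are the 40 replication and S phase genes. All 40 lie left of 0 and below the dashed line, which marks an adjusted p of 0.05, with RRM1 nearest to it at an adjusted p of 0.065.

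The lines differed in size of change, which 1 array per line and condition could not test. The median over the 40 genes was -1.02 in 92.1, -1.10 in Mel 270 and -0.34 in Mel 290, against -0.08, -0.06 and 0.01 over all tested genes. Levels were lower in co-culture for all 40 genes of the list in 92.1, against 60.1% of tested genes. The same was so for 39 in Mel 270 (57.3%) and for 36 in Mel 290 (49.2%). At least 2-fold lower were 22 genes in 92.1, 23 in Mel 270 and 2 in Mel 290 (TYMS and GINS1), against 2.71%, 4.52% and 2.30% of tested genes. The change was lowest of the 3 lines in Mel 270 for 24 genes and in 92.1 for 16, against 34.8% and 35.2% of tested genes. Mel 290 had the highest change for 34 of the 40, against 42.4% of tested genes, and the lowest for 0, against 30.0%.

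**Figure D2:**
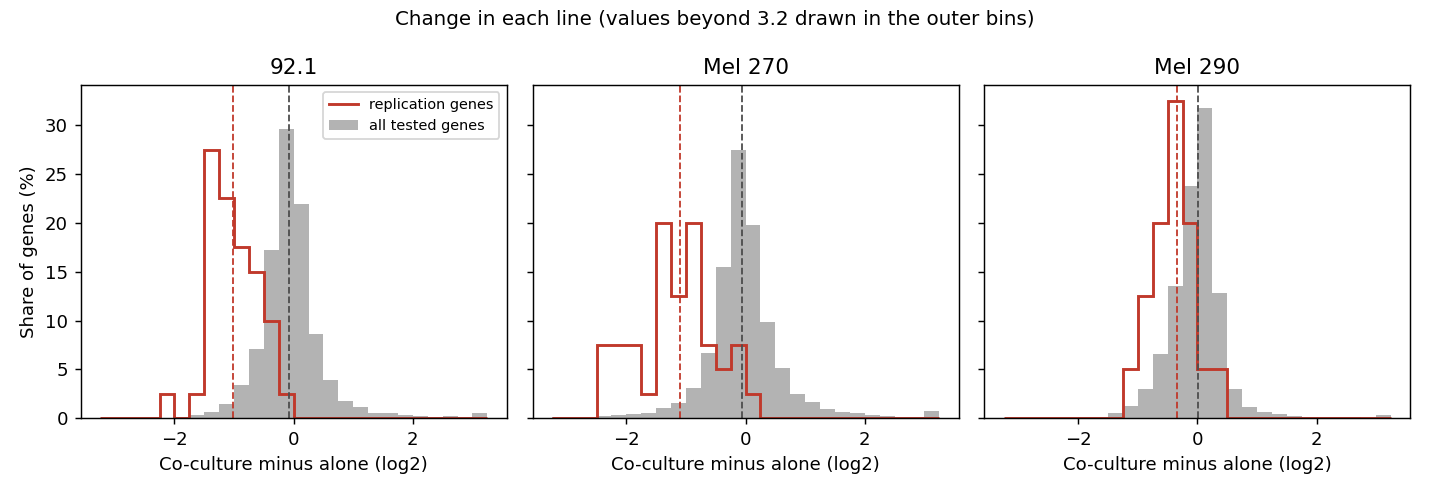
Histograms of the change in each line (horizontal, log2, co-culture minus alone) as the share of genes (vertical, %), with all 13808 tested genes in grey, the 40 replication and S phase genes as a red outline and medians as dashed lines. The red medians lie at -1.02 in 92.1, -1.10 in Mel 270 and -0.34 in Mel 290, left of the grey medians at -0.08, -0.06 and 0.01.

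Among the subunits of the helicase itself, the mean change ranged from -1.003 (MCM3) to -0.59 (MCM5). MCM2 to MCM7 form the ring that encircles and unwinds DNA, and all 6 were lower in all 3 lines, with a median mean change of -0.78. MCM3 (probe set 8127031) was at 10.30, 9.21 and 7.95 alone in 92.1, Mel 270 and Mel 290 and at 8.87, 7.77 and 7.80 in co-culture. Both groups overlapped, because 92.1 in co-culture lay above Mel 290 alone. Its change was -1.42, -1.44 and -0.15, a mean of -1.003 ± 0.741 (SD, n = 3 lines; adjusted p = 0.16). MCM6 had a mean of -0.98 ± 0.57 and its groups did not overlap: it was at 8.54, 7.94 and 7.93 alone and at 7.19, 6.68 and 7.61 in co-culture. The other subunits had mean changes of -0.89 ± 0.37 (MCM4), -0.67 ± 0.39 (MCM7), -0.66 ± 0.43 (MCM2) and -0.59 ± 0.41 (MCM5). In Mel 290 the subunits were 1.10-fold (MCM5) to 1.40-fold (MCM4) lower, against 1.54-fold (MCM7) to 2.68-fold (MCM3) in 92.1 and 1.90-fold (MCM5) to 2.72-fold (MCM3) in Mel 270.

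Licensing factors load that ring. All 5 genes of this group were lower in all 3 lines (median mean change -0.89). CDC6 (probe set 8007071), the loader that joins the origin recognition complex in G1, was at 9.43, 7.80 and 7.05 alone in 92.1, Mel 270 and Mel 290 and at 8.10, 6.02 and 6.30 in co-culture. The groups overlapped through the high level of 92.1, yet each line was lower, by 2.51-fold, 3.44-fold and 1.67-fold. The mean change was -1.28 ± 0.52 (adjusted p = 0.083). ORC6, a subunit of the origin recognition complex, was at 8.46, 6.91 and 7.55 alone and at 7.14, 5.15 and 7.36 in co-culture. Mel 270 was 3.39-fold lower, 92.1 2.50-fold lower and Mel 290 nearly level at 1.14-fold lower (mean change -1.09 ± 0.81, adjusted p = 0.16). ORC1, the ATPase of that complex, had groups that did not overlap, at 7.08, 6.72 and 6.58 alone and 6.37, 5.61 and 5.72 in co-culture (mean change -0.89 ± 0.21, adjusted p = 0.075). GMNN, which encodes geminin, the inhibitor of CDT1, differed by -0.83 ± 0.15 with an adjusted p of 0.075, and CDT1 by -0.46 ± 0.33 with 0.23. The inhibitor and its target thus had the same sign in each line.

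The factors that switch the loaded helicase on included the lowest changes of the list. CDC45 and the 4 GINS subunits join the MCM ring at origins, and MCM10 helps to start it. GINS2 (probe set 8003204) was at 10.50, 8.63 and 8.41 alone in 92.1, Mel 270 and Mel 290 and at 8.41, 6.43 and 7.57 in co-culture. The highest array in co-culture lay just below the lowest alone, so the groups did not overlap. Its changes of -2.09, -2.20 and -0.84 gave a mean of -1.71 ± 0.75 (3.27-fold lower, adjusted p = 0.084). GINS1 was at 9.01, 8.004 and 7.63 alone and at 7.69, 5.51 and 6.54 in co-culture. Its groups overlapped narrowly, since 92.1 in co-culture lay above Mel 290 alone. Mel 270 was 5.62-fold lower, to a level under the filter, 92.1 2.49-fold and Mel 290 2.12-fold lower (mean change -1.63 ± 0.755, adjusted p = 0.087).

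CDC45 was at 9.11, 8.15 and 7.16 alone and at 7.67, 5.97 and 6.81 in co-culture. Mel 270 had the lowest level of the 6 arrays after being 4.53-fold lower, whereas Mel 290 was 1.27-fold lower (mean change -1.32 ± 0.92, adjusted p = 0.14). MCM10 was at 8.90, 6.96 and 6.13 alone and at 7.19, 5.53 and 5.79 in co-culture, a mean change of -1.16 ± 0.72 (adjusted p = 0.13). The last pair of co-culture values lay under the filter level, so their distance from the values alone is imprecise. The remaining GINS subunits had smaller mean changes. GINS4 was at 8.51, 6.98 and 6.02 alone and at 8.34, 5.58 and 5.70 in co-culture: 2.65-fold lower in Mel 270 but only 1.12-fold lower in 92.1 (mean change -0.63 ± 0.67, adjusted p = 0.29). GINS3 was at 8.39, 8.10 and 7.13 alone and at 7.90, 8.21 and 7.07 in co-culture, and Mel 270 alone of the lines was higher (mean change -0.14 ± 0.31, adjusted p = 0.71).

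**Figure D3:**
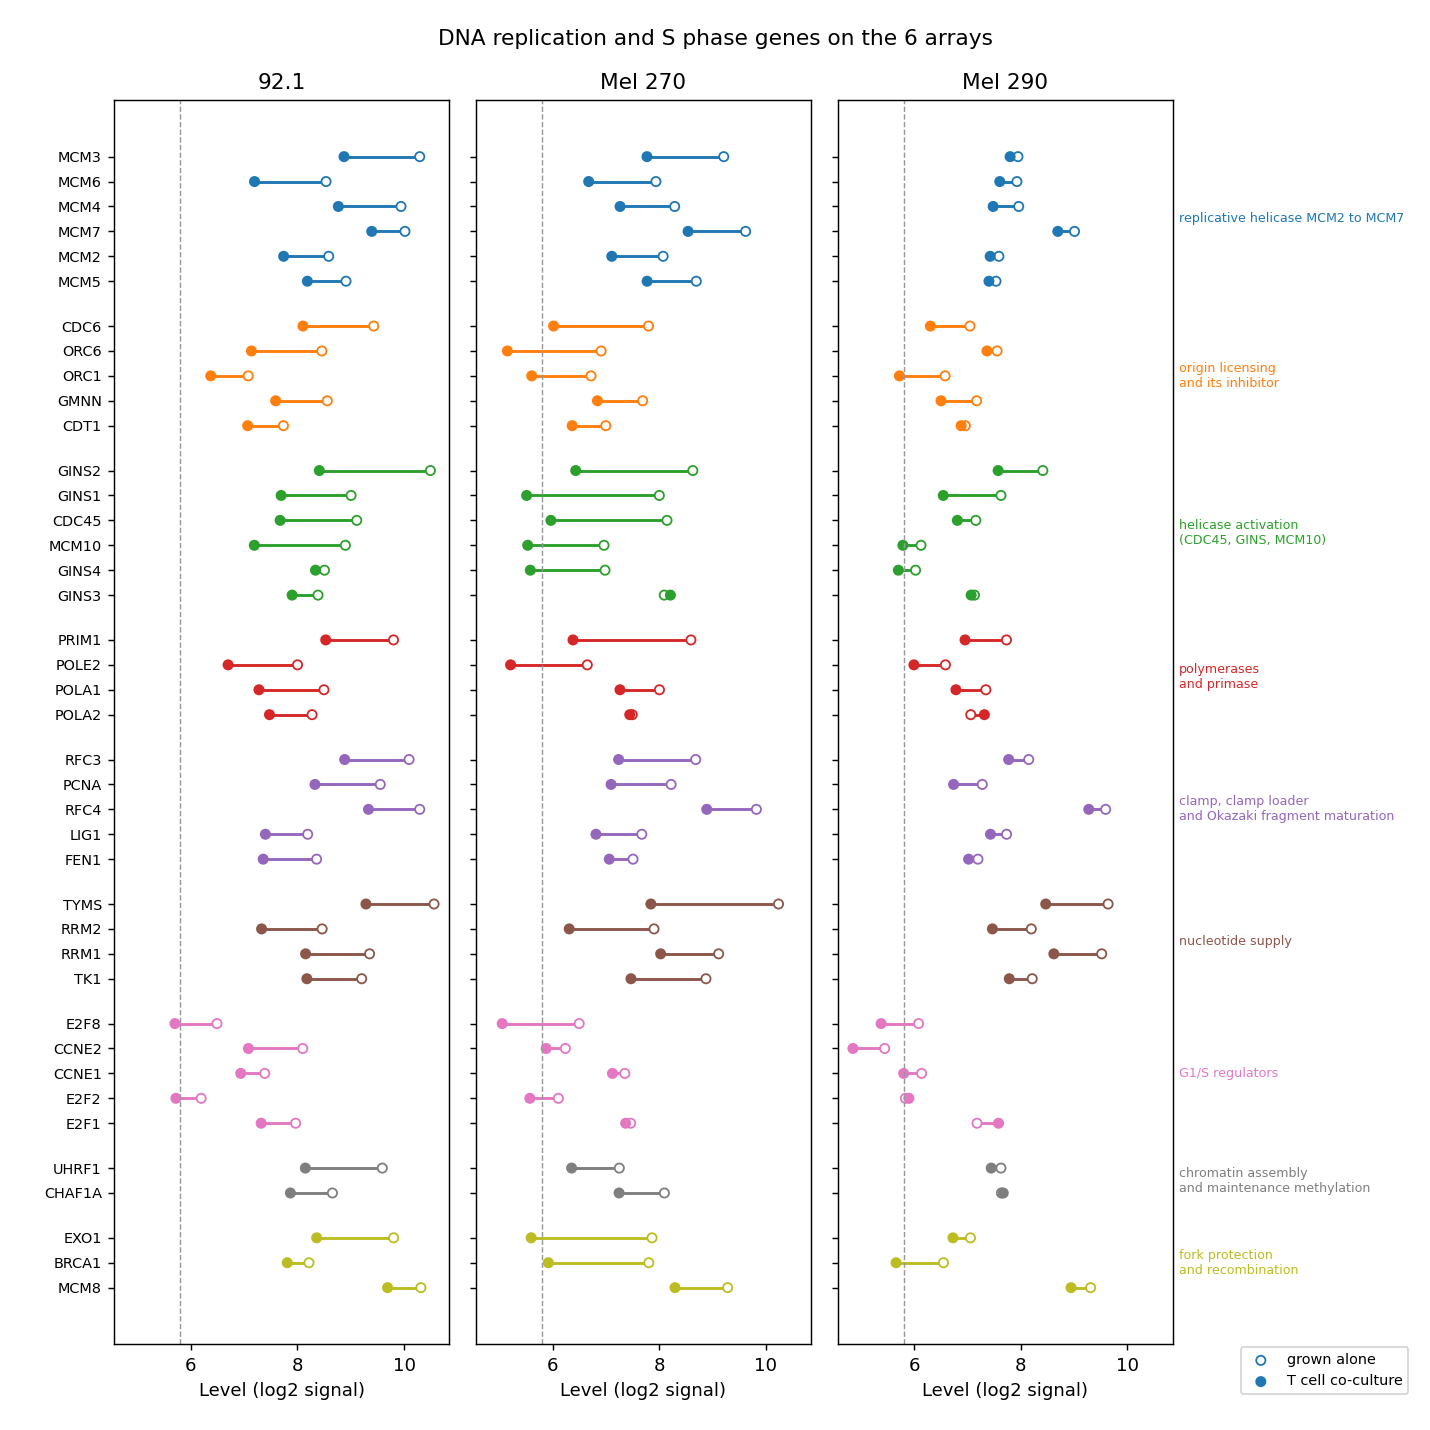
Level (horizontal, log2 signal) of the 40 genes in each line, 1 row per gene, grouped and coloured by role; open circles are arrays grown alone, filled circles arrays in T cell co-culture, and the dashed line is the filter level of 5.80. Filled circles lie left of open ones for 40 of 40 genes in 92.1, 39 in Mel 270, 36 in Mel 290, over shorter distances in Mel 290 (median change -0.34).

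Primase and polymerase genes were lower with POLA2 as the exception. PRIM1 (probe set 7964271), the catalytic subunit of primase, was at 9.80, 8.60 and 7.73 alone in 92.1, Mel 270 and Mel 290 and at 8.53, 6.38 and 6.95 in co-culture. The groups overlapped through 92.1, and Mel 270 went from the middle to the lowest of the lines at 4.64-fold lower. Its mean change was -1.42 ± 0.73 (adjusted p = 0.098). POLE2, an accessory subunit of leading-strand polymerase epsilon, was at 8.0004, 6.65 and 6.58 alone and at 6.70, 5.21 and 5.99 in co-culture, a mean change of -1.11 ± 0.46 (adjusted p = 0.087). POLA1, the catalytic subunit of polymerase alpha, differed by -0.84 ± 0.34 (adjusted p = 0.098) with groups that did not overlap. Its partner POLA2 was at 8.27, 7.50 and 7.06 alone and at 7.47, 7.45 and 7.32 in co-culture (mean change -0.20 ± 0.54, adjusted p = 0.72). It was 1.74-fold lower in 92.1, level in Mel 270 and higher in Mel 290.

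The sliding clamp, its loader and the enzymes that join Okazaki fragments were lower in all 3 lines in 5 of 5 genes (median mean change -0.74). PCNA (probe set 8064844), the clamp that tethers polymerases to DNA, was at 9.55, 8.22 and 7.28 alone in 92.1, Mel 270 and Mel 290 and at 8.33, 7.10 and 6.74 in co-culture. The order of the lines was the same in both cultures, and 92.1 in co-culture was still above both other lines alone. Its mean change was -0.96 ± 0.37 (adjusted p = 0.088). RFC3, a clamp loader subunit, was at 10.10, 8.69 and 8.15 alone and at 8.89, 7.24 and 7.77 in co-culture (mean change -1.01 ± 0.56, adjusted p = 0.12). The loader subunit RFC4 (-0.74 ± 0.36) and the ligase LIG1 (-0.65 ± 0.31) had groups that did not overlap, and the flap endonuclease FEN1 differed by -0.54 ± 0.42.

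Nucleotide supply was the 1 group in which no gene had overlapping arrays: for all 4, every array alone was above every array in co-culture. RRM1 (probe set 7937915), the large subunit of ribonucleotide reductase, was at 9.35, 9.12 and 9.52 alone in 92.1, Mel 270 and Mel 290 and at 8.15, 8.03 and 8.62 in co-culture. The lines lay close together in each culture and the cultures were apart. The changes of -1.20, -1.09 and -0.90 gave a mean of -1.06 ± 0.15 (2.09-fold lower), the lowest adjusted p of the list at 0.065. TYMS, the thymidylate synthase, was at 10.56, 10.24 and 9.64 alone and at 9.29, 7.84 and 8.47 in co-culture. Mel 270 was 5.26-fold lower, 92.1 2.43-fold and Mel 290 2.25-fold (mean change -1.61 ± 0.68, adjusted p = 0.082). RRM2, the small subunit of the reductase that is made in S phase, was at 8.46, 7.90 and 8.20 alone and at 7.33, 6.31 and 7.47 in co-culture (mean change -1.15 ± 0.43, adjusted p = 0.082). TK1, the thymidine kinase of dividing cells, differed by -0.96 ± 0.49 (adjusted p = 0.11).

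The regulators of S phase entry had a median mean change of -0.34 over 5 genes, and 3 of them were lower in all 3 lines. The activator E2F1 (probe set 8065710) was at 7.97, 7.47 and 7.18 alone in 92.1, Mel 270 and Mel 290 and at 7.32, 7.37 and 7.58 in co-culture. It was 1.57-fold lower in 92.1, nearly level in Mel 270 and higher in Mel 290 (mean change -0.11 ± 0.53, adjusted p = 0.85). The activator E2F2 lay near the filter level on all arrays (5.57 to 6.19) with a mean change of -0.31 ± 0.33. Its mean was 6.04 alone and 5.73 in co-culture, so it passed the filter only through the arrays alone. CCNE2, a cyclin E, was at 8.10, 6.24 and 5.44 alone and at 7.08, 5.88 and 4.85 in co-culture (mean change -0.66 ± 0.33, adjusted p = 0.13). The other cyclin E, CCNE1, was at 7.39, 7.36 and 6.14 alone and at 6.94, 7.12 and 5.80 in co-culture (mean change -0.34 ± 0.11, adjusted p = 0.23). For both cyclins the lines were further apart than the cultures. E2F8, a repressor of the family, was at 6.49, 6.50 and 6.08 alone and at 5.70, 5.05 and 5.38 in co-culture. Like E2F2 it passed the filter only through the arrays alone, and all 3 co-culture values lay under the filter level. Its mean change of -0.98 ± 0.41 (adjusted p = 0.091) therefore rests on low signal.

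Chromatin and fork repair genes completed the list. UHRF1 (probe set 8024900), which guides DNA methylation to newly copied strands, was at 9.59, 7.25 and 7.63 alone in 92.1, Mel 270 and Mel 290 and at 8.15, 6.36 and 7.44 in co-culture. Its change was largest in 92.1 (2.72-fold lower) and small in Mel 290 (1.14-fold), with a mean of -0.84 ± 0.63 (adjusted p = 0.17). Its dimmer probe set, with a mean level of 6.22, disagreed, with changes of 0.13, -0.43 and 0.02. CHAF1A, a subunit of the histone chaperone CAF-1, differed by -0.79, -0.85 and 0.03. EXO1, a nuclease of repair and replication, was at 9.80, 7.87 and 7.05 alone and at 8.36, 5.60 and 6.73 in co-culture, 4.82-fold lower in Mel 270 and 1.26-fold in Mel 290 (mean change -1.35 ± 0.97, adjusted p = 0.15). BRCA1, a recombination and fork protection gene, was at 8.22, 7.81 and 6.55 alone and at 7.81, 5.92 and 5.66 in co-culture (mean change -1.06 ± 0.75, adjusted p = 0.15). MCM8, a helicase of recombination related to the replicative MCMs, was lower in all 3 lines (-0.66 ± 0.31).

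Low signals touched part of these values. Of 240 values, 18 lay under 5.80, 1 alone and 17 in co-culture. Of the 17, 9 were in Mel 270, 6 in Mel 290 and 2 in 92.1. The 18 values belonged to 11 genes, whose fold changes are imprecise where they rest on them. The genes were ORC1, ORC6, GINS1, GINS4, MCM10, POLE2, CCNE2, E2F2, E2F8, BRCA1 and EXO1. With low values raised to 5.80 the median change of the 40 genes was -0.84 and 34 instead of 35 were lower in all 3 lines.

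The lines also differed in their levels before co-culture. Grown alone, 92.1 had the highest level of the 3 lines for 38 of the 40 genes, against 32.3% of tested genes, and the exceptions were RRM1 and E2F8. Mel 290 had the lowest for 34, against 41.6%. The median gap of 92.1 was 0.76 to Mel 270 and 1.23 to Mel 290 alone, and 0.93 and 0.73 in co-culture. In 27 of the 40 genes 92.1 in co-culture was above Mel 290 alone (46.4% of tested genes). It was above Mel 270 alone in only 14 (35%), under the 42.3% of tested genes. In 29 of the 40 Mel 270 in co-culture was the lowest of the 6 arrays (19.7%). The gap between the highest and lowest line alone exceeded the mean change for 31 of the 40 genes, with a median gap of 1.25. The same was not counted over all tested genes, so it cannot be read as a trait of the list.

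**Figure D4:**
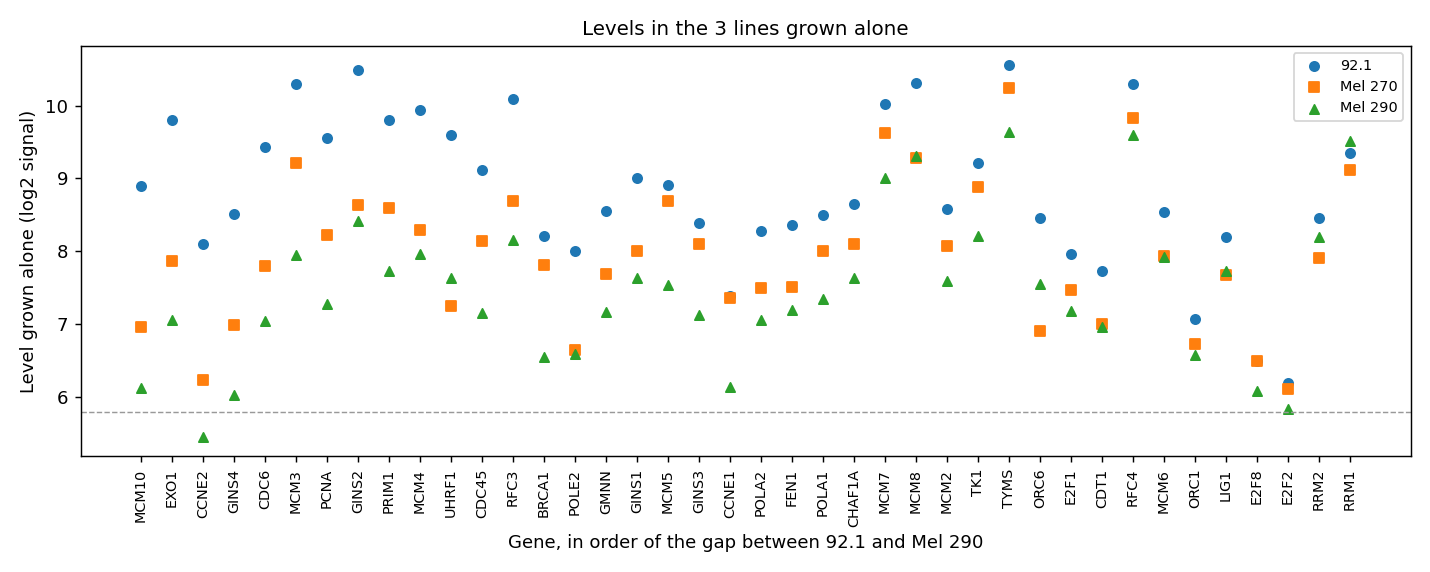
Level grown alone (vertical, log2 signal) of the 40 genes in 92.1 (circles), Mel 270 (squares) and Mel 290 (triangles), 1 array each, with genes ordered along the horizontal axis by the gap between 92.1 and Mel 290 and the filter level of 5.80 dashed. Circles are highest for 38 of the 40 genes and triangles lowest for 34; heights are comparable between lines for 1 gene, not between genes.

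In limma, each line was set against the mean of the other 2 over both cultures. Each line had 1 culture per condition, so the SE comes from how unequally the lines differed between cultures, not from repeat cultures of a line. For 92.1, 17 of the 40 genes were higher and 0 lower past an adjusted p of 0.05, against 9.73% higher and 6.18% lower over all tested genes. The 6 with the largest differences were GINS4 (2.35 ± 0.29, SE), EXO1 (2.27 ± 0.39), CCNE2 (1.99 ± 0.18), CDC6 (1.98 ± 0.24), MCM10 (1.94 ± 0.31) and PRIM1 (1.75 ± 0.31), with adjusted p from 0.0073 to 0.026. For Mel 290, 13 were lower and 0 higher, against 14.9% and 11.3%. Its lowest were CCNE2 (-1.68 ± 0.18), GINS4 (-1.49 ± 0.29), BRCA1 (-1.33 ± 0.32), PCNA (-1.29 ± 0.19), CCNE1 (-1.23 ± 0.13) and MCM10 (-1.19 ± 0.31), with adjusted p from 0.0047 to 0.045. For Mel 270, ORC6 (-1.60 ± 0.34), UHRF1 (-1.40 ± 0.27) and MCM8 (-0.77 ± 0.17) were lower and CCNE1 (0.67 ± 0.13) higher. Those shares, 3 and 1 of 40, lie near or under the 7.62% and 6.83% of tested genes called.

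Other genes of the same process gave a wider range, with mean changes from -1.58 to 0.51. The highest, CDC7 (0.51 ± 1.44) and E2F7 (0.33 ± 1.21), were higher only in Mel 270, by 2.17 and 1.71. Of 47 other tested DNA replication genes 0 passed an adjusted p of 0.05 and 29 (61.7%) were lower at an unadjusted p under 0.05 and 0 higher, against 13.0% and 7.02% of all tested genes, with a median mean change of -0.49. The S phase cyclin gene CCNA2 (-1.58 ± 0.48), the clamp loader subunit DSCC1 (-1.45 ± 0.71), the fork protein WDHD1 (-1.37 ± 0.73) and the kinase CDK2 (-1.15 ± 0.70) differed most, with adjusted p from 0.067 to 0.13. DSCC1 and CLSPN, both among the 29, passed the filter only through the arrays alone. Their means in co-culture were 5.35 and 5.69, so their changes rest on low signal. Of 20 tested repair and checkpoint genes of S phase 0 passed and 12 were lower at an unadjusted p under 0.05 and 0 higher, against the same 13.0% and 7.02% (median mean change -0.69). The largest were XRCC2 (-1.23 ± 0.56), FANCI (-1.13 ± 0.62), RAD51AP1 (-1.08 ± 0.63) and MMS22L (-0.91 ± 0.41), with adjusted p from 0.090 to 0.12. RAD51AP1 and MMS22L lay under 5.80 in Mel 270 in co-culture, at 5.03 and 5.72. FANCM, among the 12, passed the filter only through the arrays alone, with a mean of 5.69 in co-culture. Of 29 tested mitosis genes 0 passed and 28 (96.6%) were lower at an unadjusted p under 0.05 and 0 higher, again against 13.0% and 7.02%, with a median mean change of -1.38. The mitotic kinase gene CDK1 (-1.79 ± 1.22), the motor genes KIF20A (-1.78 ± 1.01) and KIF11 (-1.77 ± 1.03) and the spindle gene DLGAP5 (-1.70 ± 0.76) differed most. CDK1 and KIF11 lay under 5.80 in Mel 270 in co-culture, at 4.78 and 5.56. Their changes in that line, -3.18 and -2.97, are therefore imprecise. By line the mitosis medians were -0.90 in 92.1, -2.17 in Mel 270 and -0.85 in Mel 290. Set beside the replication medians of -1.02, -1.10 and -0.34, mitosis genes were further below 0 in Mel 270 and Mel 290 and nearer to it in 92.1; the difference between the lists was not tested.

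**Figure D5:**
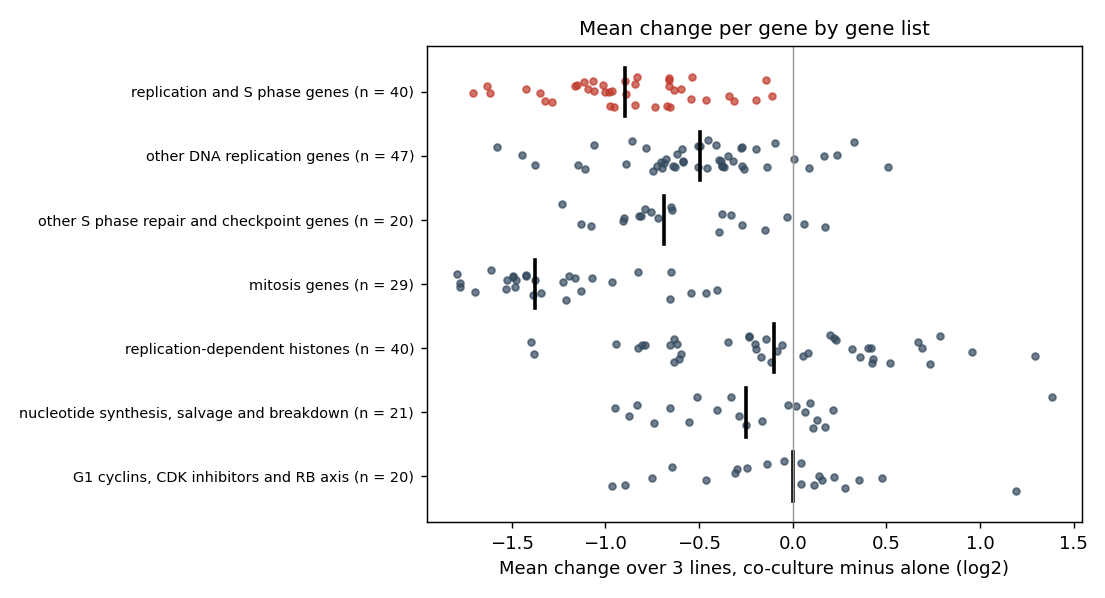
Mean change over 3 lines (horizontal, log2, co-culture minus alone) of each tested gene, 1 point per gene with random vertical offset, by gene list, with list medians as black bars. The medians lie at -0.89 for the 40 replication and S phase genes, -0.49 for other replication genes, -0.69 for repair and checkpoint genes, -1.38 for mitosis genes, -0.10 for replication-dependent histones, -0.25 for nucleotide metabolism and 0.00 for the G1 and RB axis.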

How the data were processed

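Gene expression was measured on 6 arrays of 3 uveal melanoma lines, alone or with activated T cells. The deposited values are log2 signals per probe set, made by the authors with Affymetrix Expression Console 1.2.0.20, per the submitters' processing notes; how background, summarization and normalization were done is not given in the sources used here. Array medians lay between 6.63 and 6.69, so values were used as deposited. Precision is limited by the number of arrays.

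Of 33297 probe sets, 19460 had 1 gene symbol in the platform annotation, and 19429 of these matched a current symbol in RefSeq (GRCh38.p14). The probe set with the highest mean per gene was kept. Genes with a mean at or above the 25th percentile of listed probe sets (5.80) were tested with limma 3.58.1 in R 4.3.3 (lmFit, eBayes; checked on simulated data), with cell line as a block and Benjamini-Hochberg adjustment over 13808 genes. That left 2 residual degrees of freedom plus a prior worth 3.10. Pairing comes from the labelled line: deviations from the group means correlated at 0.74 to 0.83 within lines. P-values measure the spread between lines, not between repeat cultures.

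The members and lists were chosen with earlier results of these data known, so lists were described by counts and medians. Full values are given for the 12 genes with the largest mean change, the largest of each role group and genes higher in at least 2 lines (none was); line contrasts name up to 6 called genes and other lists up to 4 with the largest change; further genes with full values were chosen after these were seen. Alternatives were another normalization (quantile, cyclic loess), filters, an intensity trend, averaged probe sets, raised low values, no block and leaving out each line.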

Additional observations from a re-analysis of the deposited data

Results flagged for a closer look

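In 5 genes the lines differed in the sign of their change, which was not tested because each line had 1 array per condition. E2F1 had changes of -0.65 in 92.1, -0.095 in Mel 270 and 0.40 in Mel 290. POLA2 had -0.80, -0.047 and 0.26 in the same order. E2F2 had -0.47, -0.54 and 0.067, and CHAF1A had -0.79, -0.85 and 0.035. GINS3 was the 1 gene of the list that was higher in Mel 270, with -0.49, 0.12 and -0.062.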

How the results depend on the processing

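Without the replicate block 0 of the 40 genes passed and the lowest adjusted p was 0.43, with 11 genes lower at an unadjusted p under 0.05. Leaving out each line in turn gave 0 to 1 genes past the threshold and a median change of the list of -1.11 to -0.78. The changes of E2F1 (0.15), POLA2 (0.10) and GINS3 (0.026) turned positive without 92.1. With a filter at the median, which tested 29 of the 40 genes, 8 were lower in Mel 290 than in the other lines and 0 higher in Mel 270. Under no filter, both normalizations, the intensity trend, averaged probe sets and raised low values, 0 genes passed in co-culture, with lowest adjusted p from 0.066 to 0.079, and the median filter gave 0.055. Between 18 and 24 genes were then at least 2-fold lower in 92.1 or in Mel 270, except 16 in Mel 270 with the median filter, and 2 were in Mel 290 under each. Signals near 5.80 limit the fold changes of 11 genes with at least 1 array under it. Counts in this section are to be read against the main fit. Shares over all tested genes under each setting are not given here.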

Other observations

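Replication-dependent histones, a class whose RNA is made in S phase, were taken by the start of their gene symbol. They numbered 40 tested, the pseudogene H2BC19P (0.79 ± 0.60) included, of which 0 passed an adjusted p of 0.05 in limma. At an unadjusted p under 0.05, 8 were lower and 7, H2BC19P among them, higher, against 13.0% lower and 7.02% higher over all tested genes. The median mean change was -0.10. H2AC21 differed by -1.40 ± 0.39 and H3C2 by -1.38 ± 0.43, whereas H2BC21 differed by 1.30 ± 0.39 and H3C10 by 0.96 ± 0.72 (SD, n = 3 lines). Histone genes are near copies whose transcripts may share probes, which makes the value of any 1 of them uncertain.

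Among 21 tested genes of nucleotide synthesis, salvage and breakdown 0 passed and 7 (33.3%) were lower and 1 higher at an unadjusted p under 0.05, against the same 13.0% and 7.02%. Their median mean change was -0.25, against -0.04 over all tested genes. SAMHD1, which breaks down deoxynucleotides, was at 7.77, 9.61 and 8.18 alone in 92.1, Mel 270 and Mel 290 and at 9.33, 10.36 and 10.03 in co-culture, a mean change of 1.38 ± 0.57 (adjusted p = 0.083). The purine enzyme gene IMPDH2 (-0.95 ± 0.18), the pyrimidine enzyme gene CAD (-0.88 ± 0.26) and DTYMK (-0.83 ± 0.40) had the opposite sign. Among 20 tested genes of the G1 cyclins, CDK inhibitors and RB axis 0 passed and 5 (25%) were lower and 2 higher at an unadjusted p under 0.05, again against 13.0% and 7.02%, with a median of 0.00 that turned to -0.12 without Mel 290. CDKN1A, which encodes the CDK inhibitor p21, was 0.685, 1.90 and 0.999 higher in 92.1, Mel 270 and Mel 290 (adjusted p = 0.11), while MYC (-0.96 ± 0.27), the E2F partner TFDP1 (-0.90 ± 0.07) and CDK4 (-0.75 ± 0.49) were lower in all 3 lines.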
